A study of Rattus norvegicus with 19 samples.

Results

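Daughters of rat fathers exposed to both early life stress and a high-fat diet were compared with daughters of fathers exposed to the stress alone. The comparison takes all 5 libraries labelled ELS-HFD and all 5 labelled ELS, 10 of the 19 libraries of the series, and asks what the father's diet adds when the father was also stressed. Each library is brain RNA from a female Wistar offspring whose own diet was chow. The fathers, not the daughters, carried the exposures: ELS is early life stress, HFD is high-fat diet, and ELS-HFD is both. The series text describes the stress as separation from the mother and the tissue as amygdala, while the sample labels say brain and whole tissue lysate. That text also speaks of male rats, and the sample labels, which say female, were followed. The other 9 libraries are 5 daughters of control fathers and 4 daughters of HFD fathers, also on chow. All 19 animals went through an elevated plus maze at postnatal day 57 ± 1. The labels give no father, litter or library batch, so daughters of the same father cannot be recognised. The p-values treat each library as independent, and the spread they use mixes animals, fathers, litters and library preparation. If daughters within a group share a father, the p-values can be too small.

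The amygdala is a group of nuclei in the temporal lobe that assigns emotional value to sensory input and drives fear and anxiety behaviour. The elevated plus maze measures anxiety as avoidance of open arms. A father's experience before mating can reach offspring through sperm, which carries DNA methylation, histones and small RNAs, and sperm DNA methylation is named in the title of the series. A whole tissue lysate mixes neurons, glia and vessels, so a change in the number of cells of a type and a change in RNA per cell cannot be told apart in these libraries.

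Genes are given here as Ensembl rat gene IDs. The deposited table holds IDs without symbols, and the symbol table used here pairs 0 of its 32883 IDs with a name. Cell type markers, stress hormone genes and other pathways were therefore not analysed here, no promoter or protein could be attached to an ID, and the labelled tissue was not checked against its markers. The IDs are described by their levels, their direction, their abundance and the libraries that carry them.

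Across the 10 libraries, totals ran from 12219864 to 16944395 counts in ELS and from 7034837 (replicate 2) to 14766188 (replicate 3) in ELS-HFD. Measures of library depth and make-up were compared by exact permutation, two-sided. The mean difference of ELS-HFD minus ELS was -1825573 counts in the total (exact permutation p = 0.341) and -422 in the number of IDs with a count (exact permutation p = 0.151). The 10 most abundant IDs were taken in each library separately, so they can differ between libraries. Their counts made up 13.6% ± 2.41 of the total in ELS-HFD and 10.8% ± 1.12 in ELS (SD, n = 5 each). The difference was 2.76 points (exact permutation p = 0.0714, adjusted p = 0.214 over the 3 measures). This last difference became 3.20 points (exact permutation p = 0.0476) when ELS-HFD replicate 4 was left out, and 3.49 points (exact permutation p = 0.0159) when replicate 5 was. Leaving out any other single library gave an exact permutation p from 0.0714 to 0.127. The p-values with libraries left out are unadjusted. ELS-HFD replicates 2 and 3 held the highest shares of the group, 14.8% and 16.7%, and without both the difference was 1.30 points (exact permutation p = 0.286).

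The libraries of the ELS-HFD group were unevenly placed. Taking the root mean square difference in log2 CPM over 14338 IDs as a distance (CPM being counts rescaled to a common library size), ELS-HFD replicates 2 and 3 lay 0.419 from each other, each the nearest library of the other. They were the farthest of the group from ELS, at 0.794 and 0.773 on average from the 5 ELS libraries. They were not the farthest from their own group: replicates 2 and 3 averaged 0.649 and 0.627 to the other ELS-HFD libraries, against 0.750 for replicate 5, 0.700 for replicate 4 and 0.626 for replicate 1. One library outside the comparison, HFD replicate 1, stood further off, at an average distance of 1.20 from the ELS libraries, and its nearest library of all was ELS-HFD replicate 3, at 0.759. ELS-HFD replicates 1, 4 and 5 all lay closer on average to ELS (0.599, 0.507 and 0.720) than to their own group. The gap was widest for replicate 4, whose nearest library among the 10 was ELS replicate 3, at 0.397, and the nearest to replicate 5 was ELS replicate 5, at 0.493. The results below are given with and without ELS-HFD replicates 2 and 3. HFD replicate 1 was left out of the fit that uses the other groups, a choice made with earlier results of these data known.

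**Figure D1:**
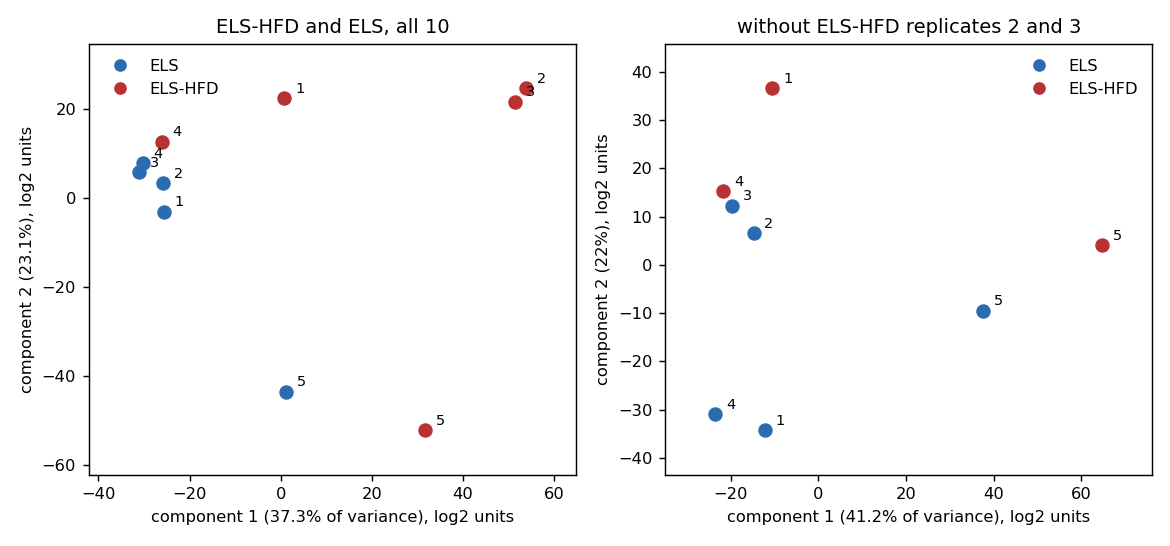
Principal components of log2 CPM for the 10 libraries (left) and for the 8 that remain without ELS-HFD replicates 2 and 3 (right); each point is 1 library, numbered by replicate, in blue for ELS and red for ELS-HFD. On the left, ELS-HFD replicates 2 and 3 lie at 53.8 and 51.3 on the first component while ELS-HFD replicate 4 lies at -26.1, among the ELS libraries; on the right, replicate 5 of both groups lies at the high end of the first component.

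The plot of principal components shows how unevenly the daughters of ELS-HFD fathers were placed. On the first component, which held 37.3% of the variance of the 10 libraries, 4 of the 5 ELS libraries lay between -31.1 and -25.7 and ELS replicate 5 lay at 1.20. The ELS-HFD libraries spanned -26.1 (replicate 4), 0.823 (replicate 1), 31.7 (replicate 5), 51.3 (replicate 3) and 53.8 (replicate 2). The groups therefore overlapped on this axis. Without ELS-HFD replicates 2 and 3, the first component (41.2% of the variance) no longer followed the fathers' group. It set ELS-HFD replicate 5 (64.8) and ELS replicate 5 (37.6) against the other 6 libraries, which lay between -23.5 and -10.5. On the second component (22% of the variance), ELS-HFD replicates 1, 4 and 5 lay at 36.6, 15.3 and 4.11. The ELS libraries ran from -34.3 (replicate 1) to 12.3 (replicate 3) there, so the groups were partly apart and still overlapped.

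The spread within the groups differed in size. Over the 14338 IDs with a mean of at least 1 CPM, the median SD of log2 CPM was 0.196 among the 5 ELS libraries and 0.273 among the 5 ELS-HFD libraries. The SD was larger in ELS-HFD for 68.1% of these IDs. Among ELS-HFD replicates 1, 4 and 5 the median SD was 0.213, and 55.4% of the IDs had a larger SD there than in ELS. These values set an SD from 3 libraries against an SD from 5. A median SD tends to be smaller with fewer libraries, so they can understate the spread that remained. The median SD was 0.179 in the control libraries.

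The comparison was fitted with edgeR's quasi-likelihood test in 2 ways: over 18 libraries, in which all groups share the estimate of the spread, and over the 10 libraries of these 2 groups alone. Over 18 libraries, 2405 of 15547 IDs (15.5%) passed an adjusted p of 0.05 (Benjamini-Hochberg), of which 1174 (7.55%) were higher and 1231 (7.92%) lower in daughters of ELS-HFD fathers. The share at an unadjusted p under 0.05 was 33.0%. In the 2 groups alone, edgeR called 0 of 14652 IDs. An unadjusted p under 0.05 was found for 4132 (28.2%), of which 1896 (12.9%) were higher and 2236 (15.3%) lower. The smallest adjusted p in that fit was 0.0548, just above the threshold. At an adjusted p under 0.1 the same fit held 2083 IDs (14.2%), 952 higher and 1131 lower, and 1940 of them were among the 2405, which is 93.1% of the shorter list and 80.7% of the longer. Both fits rest on the same 10 libraries, so this overlap is no independent support. The fits gave nearly the same differences and standard errors, with a median standard error of 0.159 over 18 libraries and 0.164 in the 2 groups alone. They differed in residual degrees of freedom (14 against 8), in the IDs tested and in the libraries that set the shared spread. Which of these moved the count of calls was not tested. Both fits give all their groups the same spread at an ID, which is a limit here. The median SD of log2 CPM was 0.273 in ELS-HFD, 0.196 in ELS and 0.179 in control. In the 2 groups alone, DESeq2 called 2132 IDs and limma-voom called 625. With HFD replicate 1 kept, edgeR on the full 19 libraries called 0 IDs, and 3039 (19.8%) had an unadjusted p under 0.05. IDs named below as called passed the threshold over 18 libraries and did not pass it with edgeR in the 2 groups alone.

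Leaving out ELS-HFD replicates 2 and 3 ended the calls of the 18-library fit, and the 2 groups alone had none to lose. Over the remaining 16 libraries, edgeR called 0 of 15470 IDs, with a smallest adjusted p of 0.12. There 2901 IDs (18.8%) had an unadjusted p under 0.05, with 1385 (8.95%) higher and 1516 (9.80%) lower. In the 2 groups alone without these libraries edgeR again called 0, of 14918 IDs tested, with a smallest adjusted p of 0.22 and an unadjusted p under 0.05 for 2426 IDs (16.3%). With the same libraries left out, limma-voom called 0 in both settings, and DESeq2 called 568 and 414. Leaving out 1 library at a time over the 18 gave 381 calls when ELS-HFD replicate 3 was dropped and 528 when ELS-HFD replicate 2 was. It gave 844 for ELS replicate 1 and 846 for ELS replicate 4. When ELS-HFD replicate 4 was dropped, the count went up to 4223, and the fit to the 2 groups alone then called 2779 IDs. No other single library among the 18 moved the count by more than 1.5 times.

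**Figure D2:**
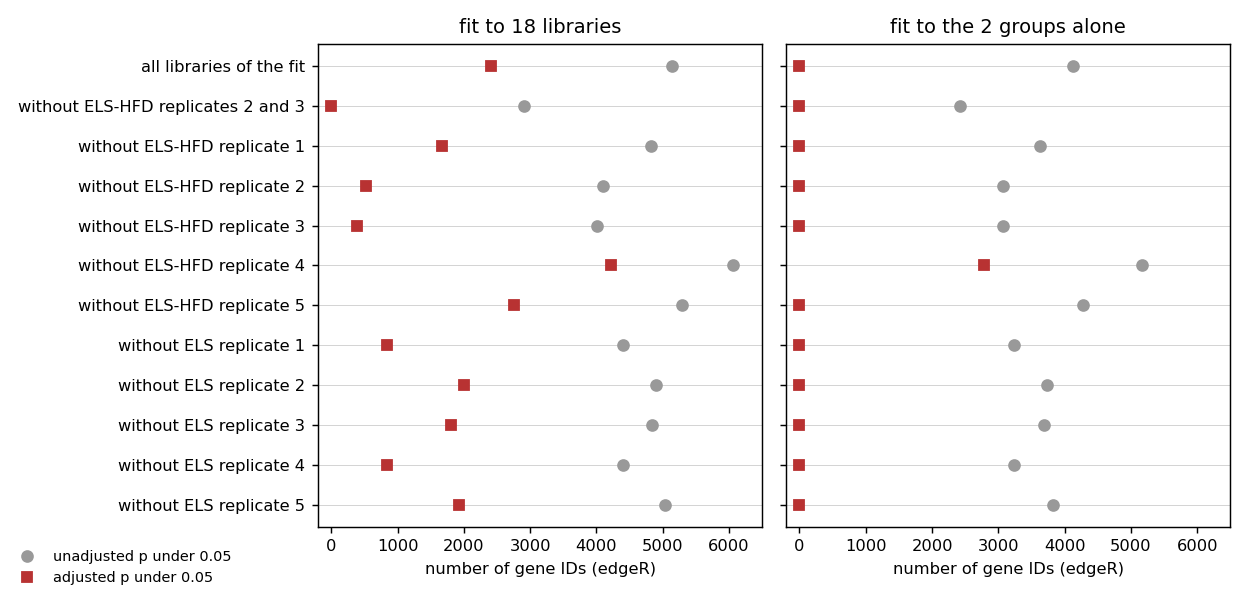
Number of gene IDs that differed between ELS-HFD and ELS with edgeR, at an adjusted p under 0.05 (red squares) and at an unadjusted p under 0.05 (grey circles), in the fit to 18 libraries (left) and to the 2 groups alone (right), each with all libraries and with the named ones left out. The red squares go from 2405 to 0 on the left without ELS-HFD replicates 2 and 3, and stand highest, at 4223 and 2779, without ELS-HFD replicate 4.

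At the median, and in the counts past a fold of 1.5 and of 2, the IDs called lower moved further than those called higher. The 1231 lower IDs had a median log2 fold change of -0.63, a fold of 1.55, and the 1174 higher IDs a median of 0.42, a fold of 1.34. The median over all 15547 tested IDs was 0.03. Of the lower IDs, 680 passed a fold of 1.5 and 208 a fold of 2, against 161 and 25 of the higher IDs. Among the 208, 140 had a mean of at least 5 CPM, and in 121 the 5 ELS-HFD libraries all lay below the 5 ELS libraries. Among the 25, only 4 reached 5 CPM, and in 10 the groups did not overlap. Past a fold of 4 the numbers were close, with 5 higher and 6 lower IDs, all at a mean of at most 2.94 CPM. The largest fitted change of the 2405 was in a higher ID, and it came from 2 counts over the 5 ELS libraries and 137 over the 5 ELS-HFD libraries, 123 of these in 1 library.

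A count of IDs whose 5 ELS-HFD and 5 ELS values do not overlap does not depend on a model of the spread. Over all tested IDs there were 494 higher (3.18%) and 581 lower (3.74%), 6.91% together. Of the called IDs, 416 of the higher and 492 of the lower did not overlap, which is 35.4% and 40%; the same libraries chose them, so nothing is read from these shares. Against ELS, ELS-HFD replicates 1, 4 and 5 alone lay wholly above or wholly below at 1455 IDs, 9.36% of those tested. Leaving libraries out can only keep or raise such a count, so the 9.36% cannot be set against the 6.91%.

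The balance of directions changed with abundance, here the CPM, which is not scaled to gene length. Of the 79 tested IDs with a mean over 1000 CPM in the 10 libraries, 17 were called higher and 1 lower, and the median log2 fold change of all 79 was 0.18. It was 0.11 without ELS-HFD replicates 2 and 3. Between 100 and 1000 CPM, 14.7% of 1927 IDs were called higher and 11.6% lower. Between 10 and 100 CPM the shares were 9.81% and 10.2% of 7776 IDs, and between 1 and 10 CPM they were 2.26% and 4.37% of 4556. Under 1 CPM, 20 of 1209 IDs were called, 7 higher and 13 lower.

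**Figure D3:**
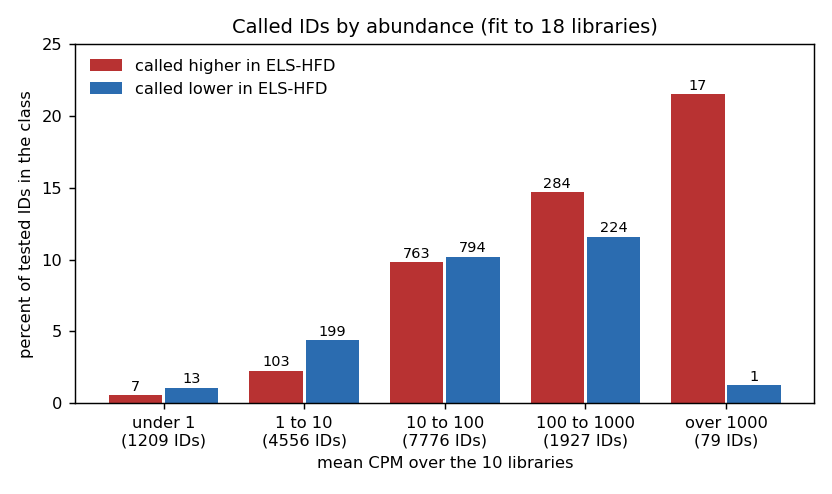
Share of tested gene IDs called higher (red) and lower (blue) in ELS-HFD than in ELS over 18 libraries, by mean CPM over the 10 libraries, with the number of called IDs above each bar. Above 1000 CPM 21.5% of the IDs were called higher and 1.27% lower, while from 1 to 10 CPM the lower calls outnumber the higher.

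In terms of reads, the called IDs moved a visible part of each library. IDs called lower took 9.19% to 10.8% of the counts in the 5 ELS libraries. In the ELS-HFD libraries they took 8.69% (replicate 4), 7.06% (replicate 5), 6.53% (replicate 1), 5.39% (replicate 2) and 5.16% (replicate 3). Those called higher took 15.4% to 16.8% in ELS, and 17.3%, 18.6%, 20.3%, 21.4% and 22.3% in ELS-HFD replicates 4, 5, 1, 2 and 3. Both measures placed the 5 ELS-HFD libraries in the same order, with replicate 4 next to ELS and replicate 3 at the far end, and neither overlapped between the groups. Since these IDs were chosen on the same libraries, the shares describe them and carry no test.

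How far each daughter moved was then read ID by ID, as the log2 CPM minus the mean of the ELS libraries. The median step over the 1231 lower IDs was -1.002 in ELS-HFD replicate 3 and -0.99 in replicate 2, -0.58 in replicate 1, -0.54 in replicate 5 and -0.19 in replicate 4. Over the 1174 higher IDs it was 0.53, 0.51, 0.42, 0.32 and 0.17 in the same libraries. Replicate 3 was the farthest of the 5 from ELS at 1033 of the 2405 called IDs and replicate 2 at 847, and at 1431 IDs (59.5%) these 2 libraries were the 2 farthest. Replicate 4 was the nearest to ELS at 1745 IDs. It had the direction of its group at 2181 of 2405 (90.7%), and replicates 1 and 5 did at 2400 and 2376. The ELS-HFD and ELS libraries chose these IDs, so a shared direction is partly built in and carries no test. Of the ELS-HFD libraries, replicate 2 had the smallest total of the 10 (7034837 counts) and replicate 3 the largest of its group (14766188). The part of depth in the steps was not tested.

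Without ELS-HFD replicates 2 and 3, the called IDs kept smaller differences. Over 16 libraries the median log2 fold change was 0.30 for those called higher and -0.44 for those called lower, where the median over all tested IDs was 0.0044. All 2405 had the sign of the difference of the whole group, and 916 of the 1174 and 1062 of the 1231 had an unadjusted p under 0.05, where 8.95% and 9.80% of all IDs tested in that fit did so in the same directions. Replicates 1, 4 and 5 and the ELS libraries also took part in choosing these IDs.

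Control daughters lay between the 2 groups. IDs chosen because ELS and ELS-HFD lie apart tend to place between them a group whose mean took no part in the choice. The position of the controls is therefore a description only. Averaged over the IDs called lower, the step from ELS ran from -0.49 to -0.15 in the 5 control libraries (median -0.27) and from -1.13 to -0.25 in the 5 ELS-HFD libraries (median -0.68). For the IDs called higher it ran from 0.11 to 0.32 in controls (median 0.19) and from 0.20 to 0.57 in ELS-HFD (median 0.45). ELS-HFD replicate 4, at -0.25 and 0.20, was inside the range of the controls in both directions, and replicates 1, 2, 3 and 5 were outside it. The 3 HFD libraries of the fit ran from -0.48 to -0.14 and from 0.13 to 0.29, which overlaps the controls. HFD replicate 1, which was not fitted, was at -1.87 and 1.08, beyond every ELS-HFD library in both directions.

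**Figure D4:**
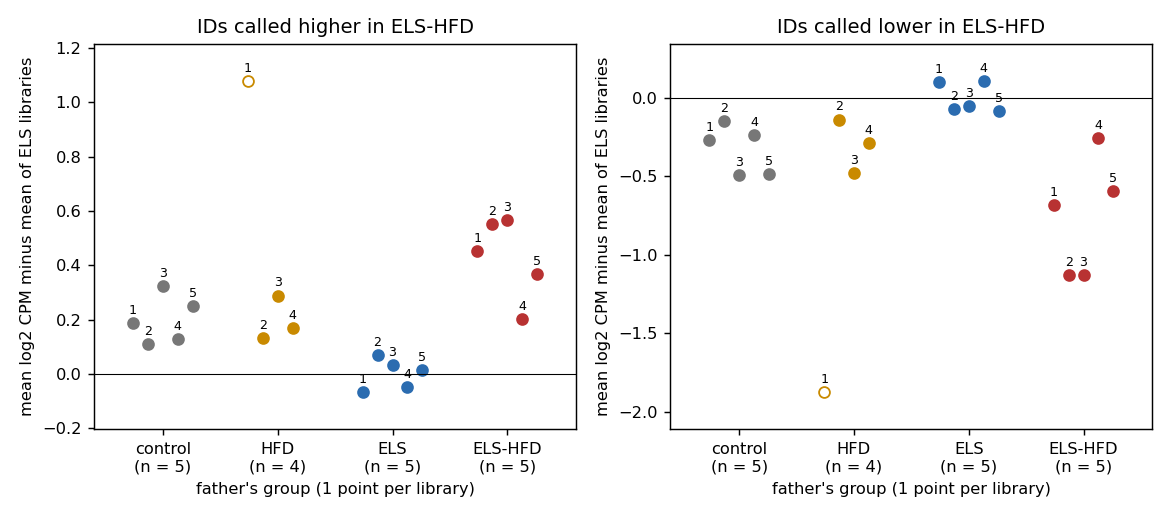
Mean log2 CPM of the 1174 IDs called higher (left) and the 1231 called lower (right) in ELS-HFD, minus the mean of the ELS libraries, for each of the 19 libraries, numbered by replicate; the open circle is HFD replicate 1, which was not fitted. Controls lie between ELS and most ELS-HFD libraries, ELS-HFD replicate 4 lies within the controls, and HFD replicate 1 lies beyond all ELS-HFD libraries at 1.08 and -1.87.

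Set against the controls one group at a time, the called IDs split their difference between both sides. The median log2 fold change of the higher IDs was -0.17 for ELS minus control and 0.23 for ELS-HFD minus control. For the lower IDs it was 0.30 and -0.34. Both differences share the control libraries and both contain a group that chose the IDs, so they are given side by side only. Neither group had an ID called against control by edgeR over 18 libraries: an unadjusted p under 0.05 was reached by 9.19% of IDs for ELS and by 13.2% for ELS-HFD.

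The same diet contrast can be read in daughters of fathers without early life stress, from libraries outside the 10 compared above. Apart from HFD replicate 1, these libraries did enter the 18-library fit that called the IDs, through its filter, scaling and shared spread. Their p-values over the called IDs are therefore not independent of the choice of IDs. Its values depended on HFD replicate 1. Without that library, HFD against control had a median log2 fold change of -0.0018 over the IDs called higher and 0.03 over those called lower, with 0.0036 over all tested IDs. At an unadjusted p under 0.05 there were 10 above and 12 below among the 1174, and 9 above and 9 below among the 1231, where 587 of all 15547 IDs (3.78%) passed, 1.33% above and 2.45% below. edgeR called 0 of the 15547 IDs at an adjusted p under 0.05. With HFD replicate 1 kept, in the fit to the full 19 libraries, the medians were 0.28 over the IDs called higher and -0.21 over the 1227 of those called lower that were tested, the directions of ELS-HFD against ELS, with 0.0061 over all tested IDs. There 270 of the 1174 were above and 6 below at an unadjusted p under 0.05, and 5 and 33 of the 1227. Of all 15372 IDs, 1198 (7.79%) passed, 4.77% above and 3.02% below, and edgeR again called 0 at an adjusted p under 0.05. This fit was added after seeing the data. The difference of the 2 diet contrasts was tested as an interaction. Over 18 libraries it called 0 IDs, with a smallest adjusted p of 0.164 and 3135 IDs (20.2%) at an unadjusted p under 0.05. Over the full 19 libraries it also called 0, with a smallest adjusted p of 0.969 and 788 IDs (5.13%) at an unadjusted p under 0.05. At no single ID was the diet contrast shown to depend on the early life stress of the father.

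Of the called IDs, 358 higher and 440 lower met a stricter reading: a mean of at least 5 CPM, no overlap between the 5 and the 5 libraries, and an unadjusted p under 0.05 in the 2 groups alone both with and without ELS-HFD replicates 2 and 3. These conditions reuse the libraries that made the calls, so the shorter lists are a description and add no support. All 1168 higher and 1220 lower called IDs tested in the 2 groups alone already had an unadjusted p under 0.05 there (edgeR). The median log2 fold change of the 358 was 0.43, and 0.34 without the 2 libraries. For the 440 these were -0.68 and -0.49. Only 2 of the 358 passed a fold of 2, and 85 of the 440 did. Of these IDs 4 are shown: the largest rise, the largest fall but one, and in each direction the ID with the smallest p, which among the lower IDs is also the largest fall. Membership of the 358 or the 440 required groups that do not overlap, so the gaps between groups given for these 4 are no separate result.

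ENSRNOG00000018094, the lower ID with the smallest p and the largest fall of the 440, was at 50.5, 41.1, 27.5, 53.1 and 35.9 CPM in ELS replicates 1 to 5. In ELS-HFD replicates 1 to 5 it was at 10.2, 7.41, 8.37, 18.4 and 14.0 CPM. Every ELS library was above every ELS-HFD library, replicates 2 and 3 were the lowest, and replicate 4 the highest of its group. The means were 41.6 ± 10.6 and 11.7 ± 4.53 CPM (SD, n = 5 each), and the log2 fold change was -1.81 ± 0.27 (SE, adjusted p = 0.0125 over 18 libraries). In the 2 groups alone the adjusted p was 0.0548. Without ELS-HFD replicates 2 and 3 the log2 fold change over 16 libraries was -1.55 ± 0.29 (SE, adjusted p = 0.12). Control libraries averaged 21.2 ± 4.16 CPM (SD, n = 5), between the 2 groups.

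ENSRNOG00000027152 was also called lower. It was at 13.3, 7.43, 6.03, 13.9 and 8.12 CPM in ELS replicates 1 to 5, and at 3.91, 1.54, 1.72, 3.84 and 4.39 CPM in ELS-HFD replicates 1 to 5. These last values come from 51, 11, 25, 52 and 53 counts. ELS-HFD replicates 2 and 3 were below the other 3, which lay close together, and the groups did not overlap. Its log2 fold change was -1.63 ± 0.30 (SE, adjusted p = 0.0125), and -1.27 ± 0.29 without replicates 2 and 3 (adjusted p = 0.13). The level in HFD replicate 1, 0.459 CPM from 5 counts, was the lowest of the 19 libraries.

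ENSRNOG00000027049 had the smallest p of the IDs called higher, with a modest and even difference. It stood at 92.3, 107, 106, 94.2 and 115 CPM in ELS replicates 1 to 5 and at 159, 161, 167, 128 and 144 CPM in ELS-HFD replicates 1 to 5. The lowest ELS-HFD library, replicate 4, was above the highest ELS library, replicate 5. The log2 fold change was 0.58 ± 0.09 (SE, adjusted p = 0.0125) and became 0.48 ± 0.10 without replicates 2 and 3 (adjusted p = 0.13). Controls averaged 116 ± 12.3 CPM (SD, n = 5). HFD replicate 1 was at 310 CPM, the highest of all 19.

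ENSRNOG00000052017 had the largest rise of the 358. It was at 8.50, 8.76, 11.99, 5.24 and 14.1 CPM in ELS replicates 1 to 5, and at 26.0, 24.7, 24.0, 15.4 and 17.96 CPM in ELS-HFD replicates 1 to 5. Replicate 1, not 2 or 3, was the highest, and the gap between the groups was narrow, from 14.1 to 15.4 CPM. The log2 fold change was 1.16 ± 0.29 (SE, adjusted p = 0.0181), and 1.01 ± 0.33 without replicates 2 and 3 (adjusted p = 0.154). Its adjusted p was above 0.05 when 1 of these libraries was left out, at 0.0511 for replicate 2 and 0.0526 for replicate 3. Unlike the other 3 IDs, it did not put HFD replicate 1 at an extreme: that library was at 12.4 CPM, within the 7.07 to 18.96 CPM of the other HFD libraries. The control mean of 19.9 ± 5.27 CPM (SD, n = 5) was close to that of ELS-HFD, 21.6 ± 4.66 CPM (SD, n = 5), and the ELS mean was 9.71 ± 3.42 CPM (SD, n = 5).

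**Figure D5:**
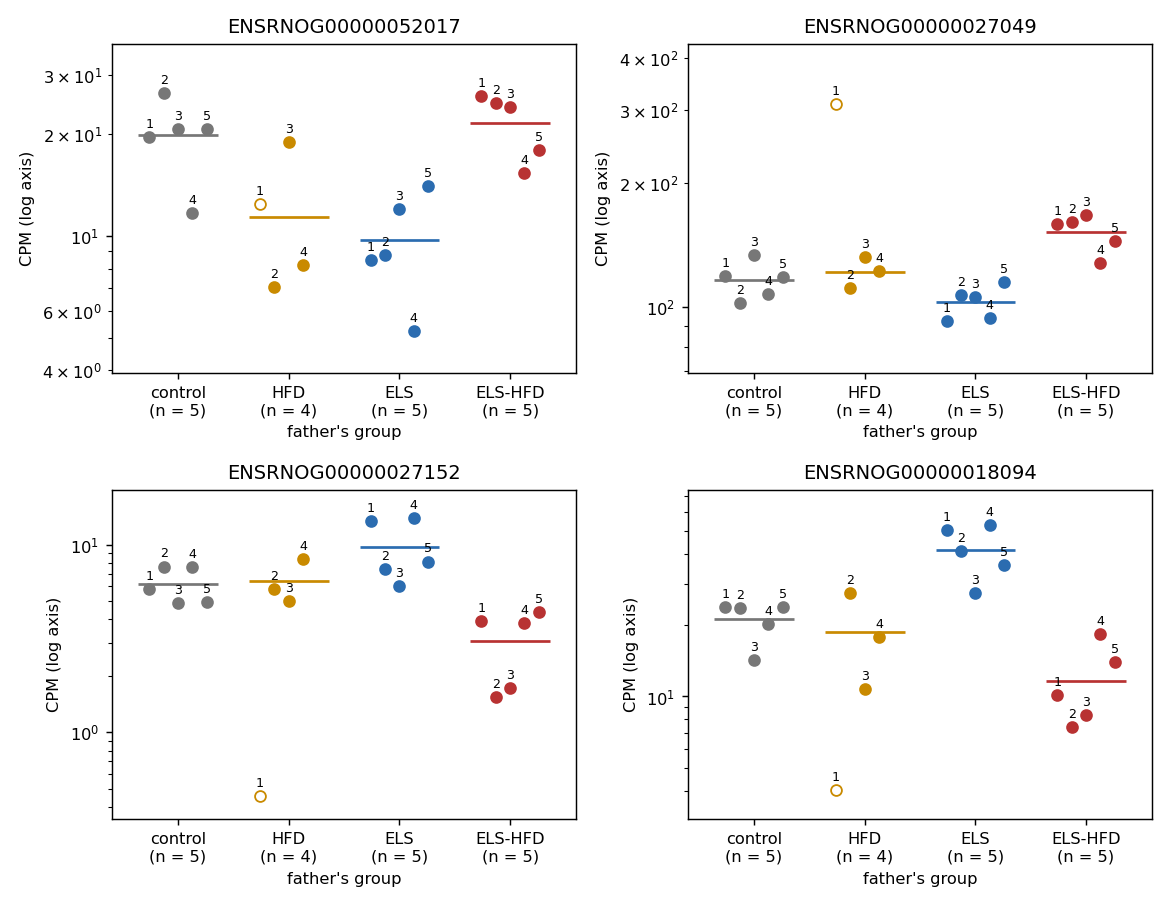
Level of 4 gene IDs in all 19 libraries (CPM, log axis), 1 point per library numbered by replicate, with the mean of each group as a line; the open circle is HFD replicate 1, which is left out of its group's mean. In each panel the 5 ELS and the 5 ELS-HFD libraries do not overlap, which the lists that these IDs belong to required. HFD replicate 1 is the most extreme library for 3 of the 4 IDs.

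For none of these 4 IDs did the diet contrast differ by the interaction test over 18 libraries after adjustment (edgeR, adjusted p = 0.164 for each). The interaction on the log2 scale was -1.62 for ENSRNOG00000018094, -1.68 for ENSRNOG00000027152, 0.51 for ENSRNOG00000027049 and 1.96 for ENSRNOG00000052017. The last of these contains an HFD minus control difference of -0.80 (unadjusted p = 0.0289, adjusted p = 1.00 with edgeR) beside the rise between ELS and ELS-HFD.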

How the data were processed

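Libraries were made from about 400 ng of RNA with poly-A enrichment, per the labels' protocols. The authors deposited whole-number read counts per Ensembl gene ID, not normalized, as the values show. Build Rnor_6.0 and DESeq2 are named without a version, per the submitters' processing notes. The aligner, annotation and strand setting were not given in the sources used here, so counts of overlapping or near-identical genes are uncertain. The groups, lists and tests were chosen with earlier results of these data known. IDs kept by filterByExpr (15547, holding at least 99.9% of every library's counts) were scaled by TMM and tested by edgeR 4.0.16 (R 4.3.3), quasi-likelihood F test, with group as the only term. The standard error was derived from the log2 fold change and F. CPM and log2 CPM (prior count 2) use TMM over 19 libraries. Alternatives used DESeq2 1.42.0, limma 3.58.1 and sva 3.50.0.

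The rule for named genes took called IDs with a mean of at least 5 CPM, no overlap between groups and an unadjusted p under 0.05 in the 2 groups alone with and without ELS-HFD replicates 2 and 3, ranked by size, plus the smallest p in each direction. It also asked for symbols, which could not be matched, so 2 IDs per direction are printed, and the gene lists and the check of gene length were not run. In simulated counts with 200 changed IDs, the 18-library fit (15381 IDs tested) found 67% of 2-fold and 96% of 4-fold changes, with 8 false among 171 calls. The 2-group fit (14503 IDs tested) found 62% and 95%, with 8 false among 165. Simulated IDs vary independently and real ones do not. The simulation also gave all groups of an ID the same spread and set no library apart. In the data the median SD of log2 CPM was 0.273 in ELS-HFD and 0.196 in ELS. The simulated false counts therefore do not carry over to these libraries.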

Additional observations from a re-analysis of the deposited data

How the results depend on the processing

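The count of called IDs over 18 libraries, 2405, stayed within 1.5 times in 18 of 28 alternatives, among them DESeq2 (3188), limma-voom (2506), size factors (2277) and 1 surrogate variable (2214). It was 0 with all 19 libraries and 0 without ELS-HFD replicates 2 and 3, where DESeq2 gave 568 and limma-voom 0, both chosen after seeing the data. It was 1591 with no filter on low counts, which tests 23146 IDs. Leaving out single libraries gave 381 to 4223. The 0 of the 2 groups alone became 2132 with DESeq2, 625 with limma-voom and 414 with DESeq2 without ELS-HFD replicates 2 and 3, and ran from 0 to 2779 with single libraries left out. The causes were not tested. Replicate numbers are shared by the groups, but deviations of same-numbered ELS and ELS-HFD libraries correlated from -0.19 to 0.60 across IDs, and 1 of 5 ELS libraries matched its own number best, so they were not taken as pairs. With the replicate number as a block the counts were 2416 over 18 libraries and 108 in the 2 groups alone. All 4 printed IDs kept their direction in every alternative that gave them a value. ENSRNOG00000027152 had no value with DESeq2 over 18 libraries without ELS-HFD replicates 2 and 3. The 4 calls of the 18-library fit were lost with all 19 libraries kept and with edgeR or limma-voom without ELS-HFD replicates 2 and 3. ENSRNOG00000052017 also lost its call without either of these 2 libraries alone. Without their symbols, the planned counts by gene list were not run. Under 1 CPM, 20 of 1209 IDs passed; the part of depth in that number was not tested.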
